A study of Mus musculus with 12 samples.

Results

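The genes described here are 40 members of the response of cells to low oxygen and of glucose breakdown, followed in CT26, a mouse colorectal cancer cell line, and in tumors grown from it. They were taken by name from a list of glycolytic enzymes and hypoxia-inducible genes, and all 40 were found among the 55335 gene identifiers of the count tables. Of these, 22 act in glucose uptake, glycolysis or the fate of its product, and 18 belong to oxygen sensing or are induced when oxygen is low. The 12 RNA-seq libraries form 4 groups of 3. The first group holds CT26 tumors under the skin of mice given midostaurin at 40 mg/kg, begun on day 7 and continued for 2 weeks. The second holds the same kind of tumor given vehicle. The third holds cultured CT26 cells, labelled wild type, exposed to midostaurin at 1 µM for 48 h. The fourth holds CT26 cells given the solvent DMSO. Midostaurin is an inhibitor of several kinases, among them FLT3, KIT and protein kinase C. The labels do not give the age, strain or sex of the mice. Nor do they state that replicate samples were grown or taken independently; the error behind each p-value is the scatter among the libraries given, which may be technical.

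Glycolysis splits glucose into pyruvate in a chain of enzymes, and many tumors pass the pyruvate on to lactate and export it. When oxygen is scarce, prolyl hydroxylases of the EGLN family no longer mark the alpha subunits of the hypoxia-inducible factors (HIF) for destruction, and the stabilised factors bind short DNA motifs, ACGTG or GCGTG, near their targets. The targets include most glycolytic genes, glucose and lactate transporters, carbonic anhydrases that handle acid at the cell surface, mitophagy receptors and the hydroxylases themselves. HIF1A is set mainly at the protein level, so the level of its mRNA is not a measure of its activity.

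The upstream sequence of 6 members is shown because the motif is the element through which the factors are known to act, and because these members differ in direction between tumors and cells. RefSeq promoter windows of build GRCm38.p6 were found for 36 of the 40 members. Each line gives the 250 bases before an annotated start, 5′ to 3′ on the strand of the gene. Capitals mark ACGTG or GCGTG and their reverse complements CACGT and CACGC. The palindrome CACGTG holds ACGTG and CACGT at once and was counted as both. The Car9 window is chr4:43506776-43507025 on the plus strand, that of Slc16a3 chr11:120948817-120949066 on the plus strand and that of Ankrd37 chr8:45999851-46000100 on the minus strand. The Pgk1 window is chrX:106186850-106187099, that of Hif1a chr12:73907617-73907866 and that of Pfkm chr15:98092339-98092588, all 3 on the plus strand. Car9, Slc16a3, Ankrd37 and Pgk1 were higher in vehicle tumors than in DMSO cells, and Hif1a and Pfkm were lower. Pfkm has 4 windows, 2 of them without ACGTG, and the most upstream one is shown. The sequence just after the start of the Hif1a window was not found in an annotated transcript of the gene.
Car9: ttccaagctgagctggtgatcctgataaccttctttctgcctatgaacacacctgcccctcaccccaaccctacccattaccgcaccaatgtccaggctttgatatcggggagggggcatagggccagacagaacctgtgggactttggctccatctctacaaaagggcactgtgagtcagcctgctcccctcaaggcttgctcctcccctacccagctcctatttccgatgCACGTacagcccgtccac
Slc16a3: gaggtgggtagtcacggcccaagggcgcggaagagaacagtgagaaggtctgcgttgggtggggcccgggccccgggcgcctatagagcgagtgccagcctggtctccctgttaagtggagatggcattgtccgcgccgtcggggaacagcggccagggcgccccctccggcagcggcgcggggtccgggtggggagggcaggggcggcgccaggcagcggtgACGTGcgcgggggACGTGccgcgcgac
Ankrd37: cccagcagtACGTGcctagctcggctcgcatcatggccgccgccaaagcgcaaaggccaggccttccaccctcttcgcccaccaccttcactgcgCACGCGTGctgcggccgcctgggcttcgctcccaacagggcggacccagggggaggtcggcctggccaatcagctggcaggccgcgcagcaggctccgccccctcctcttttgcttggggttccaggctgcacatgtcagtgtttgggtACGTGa
Pgk1: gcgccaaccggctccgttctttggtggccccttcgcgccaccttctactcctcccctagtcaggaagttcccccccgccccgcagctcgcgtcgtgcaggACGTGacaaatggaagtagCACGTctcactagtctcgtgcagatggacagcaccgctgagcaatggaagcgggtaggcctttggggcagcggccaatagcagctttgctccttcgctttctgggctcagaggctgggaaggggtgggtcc
Hif1a: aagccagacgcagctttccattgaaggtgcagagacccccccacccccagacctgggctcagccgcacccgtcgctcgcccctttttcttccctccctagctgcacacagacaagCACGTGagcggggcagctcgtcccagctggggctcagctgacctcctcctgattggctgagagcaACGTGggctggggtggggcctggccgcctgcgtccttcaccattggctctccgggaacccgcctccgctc
Pfkm: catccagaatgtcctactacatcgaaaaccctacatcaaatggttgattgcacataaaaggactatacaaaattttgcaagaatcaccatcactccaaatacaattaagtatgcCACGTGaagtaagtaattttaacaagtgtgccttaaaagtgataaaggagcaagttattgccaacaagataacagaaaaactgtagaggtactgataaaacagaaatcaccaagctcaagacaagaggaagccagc

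ACGTG on either strand was found in at least 1 window of 21 of the 36 members, or 58.3%, against 18.5% of the 27025 genes with a window. It was present in 12 of the 22 members with a window that were higher in vehicle tumors than in DMSO cells, in 3 of the 3 that were lower and in 6 of the 11 that were not called. In 9 of the 54 member windows, among them those of Hif1a and Vegfa, the sequence after the start was found in no annotated transcript of the member. Without these 9, ACGTG was present in 16 of the 32 members with a window left. It was present in 10 of 21 members that were higher, in Pfkm as the 1 remaining member that was lower and in 5 of 10 that were not called. The members were listed as glycolytic and hypoxia-inducible genes, so a share above that of all genes was built into the choice. A gene with more windows also had more room for a match. The 36 members had 54 windows, and the 27025 genes had 32851. A match describes the letters of the window and does not show that a factor binds there.

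Total counts were 33399701 to 48109497 per tumor library and 34787389 to 38144039 per cell library. Levels are given as CPM, which scale the counts to a common library total after TMM normalisation. In culture, the libraries numbered 1 stood apart from the other 4 in both groups. In them 15 members lay above and 17 below all 4 others, where 29.7% and 28.2% of all genes did so. Of 10 colon epithelial markers, 2 had 0 counts in every cell library, Epcam among them. Krt20 averaged 38.1 CPM in midostaurin cells and 38.1 CPM in DMSO cells. Krt18 had 22.7 to 29.6 CPM in midostaurin cells and 24.0 to 26.9 CPM in DMSO cells. Sums of the 10 markers differed between libraries, at 40.8 to 83.0 CPM in midostaurin cells and 39.3 to 82.3 CPM in DMSO cells. Tumors also held RNA of host cells. Macrophage markers summed to 559 to 1323 CPM in midostaurin tumors, 1383 to 2428 CPM in vehicle tumors and 5.59 to 26.8 CPM in DMSO cells, and endothelial markers to 86.6 to 158 CPM, 106 to 206 CPM and 3.24 to 4.96 CPM in the same groups. Neutrophil markers reached 691 CPM in midostaurin tumor 3 and 15.2 to 38.8 CPM in the other 5 tumors, and keratinocyte markers 768 CPM in vehicle tumor 2 and 1.52 to 1.78 CPM in the other 5. In bulk RNA, fewer cells of a type and less RNA per cell cannot be told apart.

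**Figure D1:**
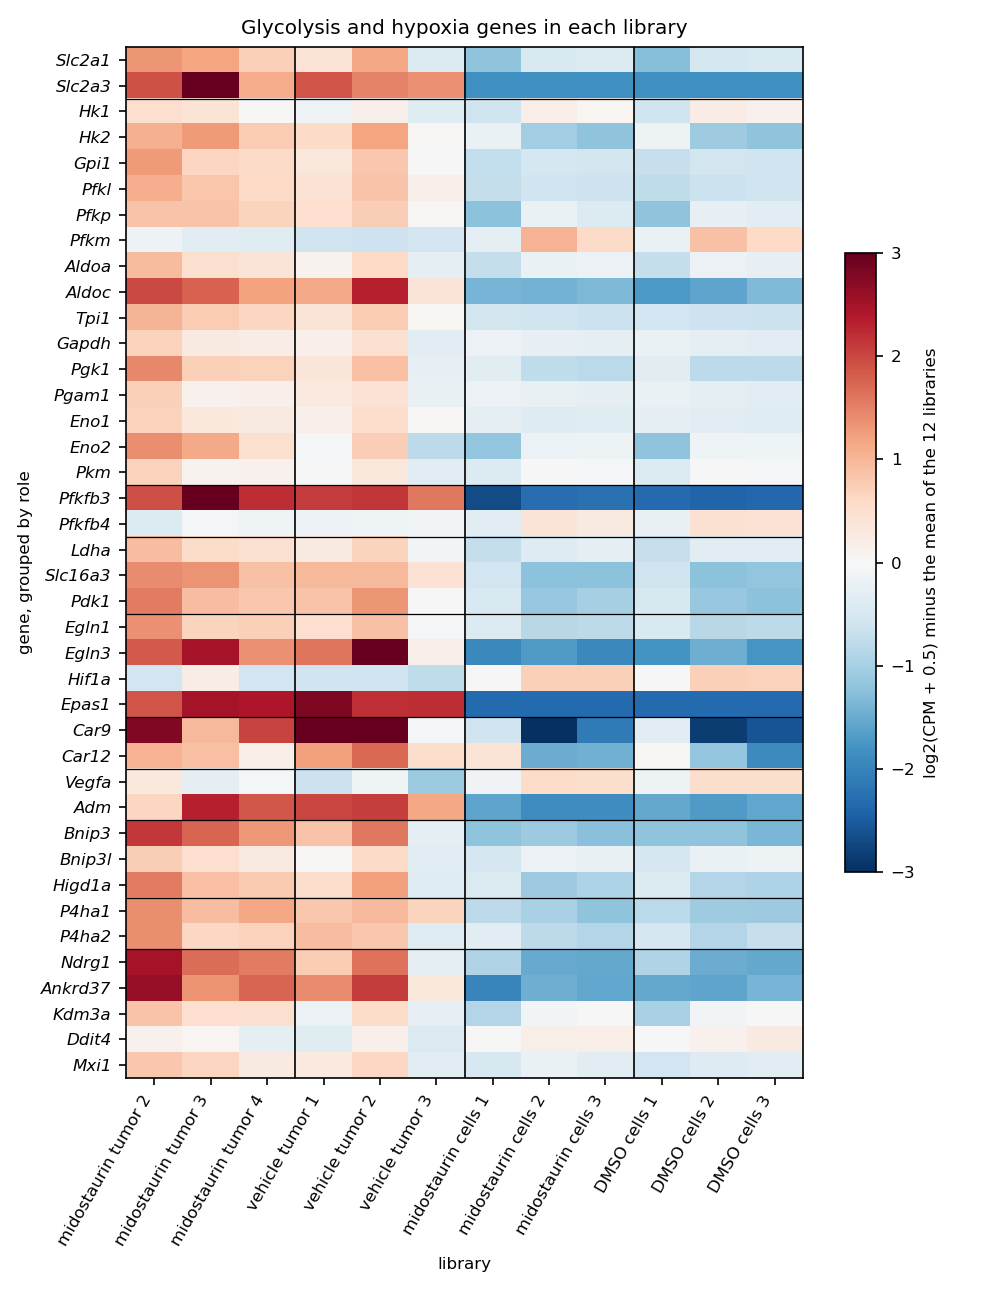
Level of each of the 40 genes (rows, grouped by role) in each library (columns), as log2(CPM + 0.5) minus the mean of that gene over the 12 libraries, with the colour scale ending at 3 on either side. Most rows are red in tumors and blue in cells, vehicle tumor 3 is the palest tumor, and Pfkm, Hif1a and Vegfa run the other way.

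Tumors were compared with cultured cells to show how the pathway stood in tissue and in the dish. In vehicle tumors 25 of the 40 members were higher than in DMSO cells and 3 were lower, at an adjusted p under 0.05 by edgeR's quasi-likelihood test with Benjamini-Hochberg adjustment over all 15899 genes tested. Of all genes tested, 22.2% were called higher and 18.1% lower. The median log2 fold change of the members was 1.10 against 0.03 for all genes tested, and 34 of 40 members lay above 0 against 51.7% of all genes. With a change of at least 2-fold also required, 22 members were higher and 2 were lower, where 14.6% and 6.84% of all genes were. The 3 vehicle tumors lay wholly above the 3 DMSO cell libraries for 27 members and wholly below them for 2, where 30.1% and 25.6% of all genes did. DESeq2 called 28 members higher and 3 lower, where it called 25.8% and 19.2% of all genes. In the other 6 libraries, midostaurin tumors against midostaurin cells, 32 members were called higher and 0 lower, where 21.7% and 18% of all genes were, and 24 of the 28 calls of the control libraries recurred. The calls also depended on single libraries: 17 of the 28 kept their call with each of the 6 libraries left out in turn. The other 11 were Car9, Car12, Eno1, Higd1a, Hk2, Ldha, P4ha2, Pfkm, Pfkp, Pgk1 and Vegfa. Members called higher numbered 25 without DMSO cells 1, 16 without DMSO cells 3, 17 without DMSO cells 2, 17 without vehicle tumor 1, 16 without vehicle tumor 2 and 29 without vehicle tumor 3. Host cell markers moved with the same contrast: 10 of 10 macrophage, 10 of 10 T and NK cell, 9 of 10 endothelial, 8 of 8 pericyte and 5 of 10 fibroblast markers were called higher in vehicle tumors, and their part in the members' differences was not tested. Tumors and cells were also deposited as separate count tables, so tissue and table cannot be told apart.

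**Figure D2:**
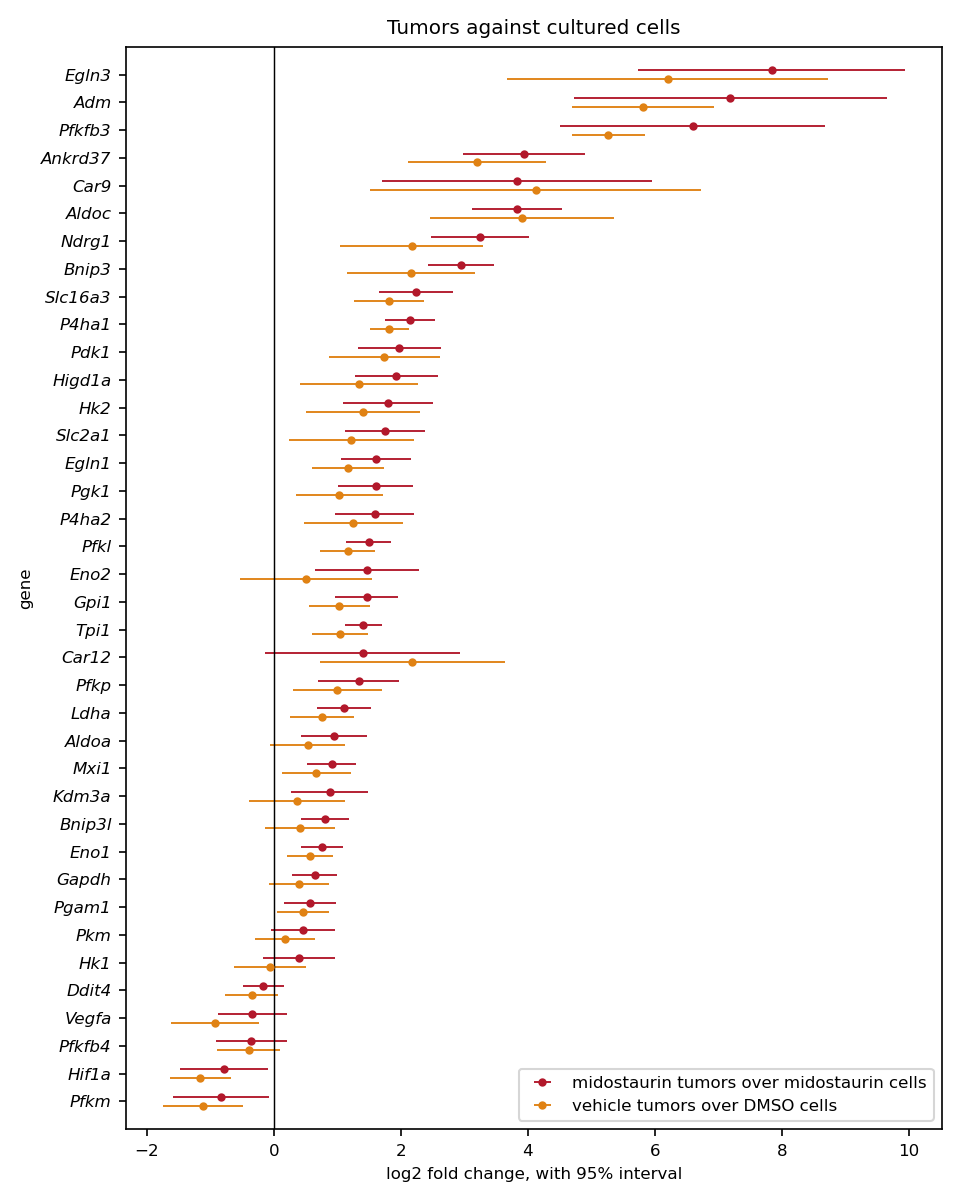
Log2 fold change of tumor over cell with its 95% interval (horizontal axis) for 38 genes (rows), in midostaurin tumors over midostaurin cells (red) and vehicle tumors over DMSO cells (orange). Slc2a3 and Epas1, with 0 counts in every cell library, are left out; Egln3, Adm and Pfkfb3 lie farthest to the right and Pfkm and Hif1a farthest to the left.

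Glucose enters these cells through facilitative transporters. Slc2a1, which encodes GLUT1, had 256, 435 and 143 CPM in vehicle tumors 1, 2 and 3, against 79.7, 135 and 141 CPM in DMSO cells 1, 2 and 3. The groups did not overlap, but vehicle tumor 3 lay next to the highest cell library, and the log2 fold change of 1.22 ± 0.42 (SE) missed the threshold (edgeR's quasi-likelihood test, adjusted p = 0.0544). Without vehicle tumor 3, Slc2a1 was among the members called higher. Slc2a3, which encodes GLUT3, had 6.11, 4.51 and 4.12 CPM in vehicle tumors and 0 counts in each of the DMSO and midostaurin cell libraries. With 3 counts set as the floor of each cell library, Slc2a3 was at least 60.68-fold higher in vehicle tumors than in DMSO cells and at least 103.8-fold higher in midostaurin tumors than in midostaurin cells. Slc2a1 remained the main transporter per kilobase of exon, with 98.3% to 99.5% of the summed level of both genes in every tumor.

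Of the 15 glycolytic enzymes, 8 were higher in vehicle tumors, 1 was lower and 6 were not called, with a median log2 fold change of 0.57. Pfkl, the liver-type phosphofructokinase, had 246, 329 and 203 CPM in vehicle tumors, against 107, 117 and 121 CPM in DMSO cells. Tpi1, triosephosphate isomerase, had 1151, 1505 and 917 CPM in vehicle tumors, against 596, 572 and 561 CPM in DMSO cells. Both rose by close to the same amount, by 1.17 ± 0.18 and 1.04 ± 0.18 on the log2 scale (edgeR's quasi-likelihood test, adjusted p = 0.00337 and 0.00523), and in both the tumors lay above every cell library. Aldoc, the brain-type aldolase, had 5.98, 14.5 and 3.38 CPM in vehicle tumors, against 0.405, 0.489 and 0.683 CPM in DMSO cells. Its log2 fold change of 3.91 ± 0.61 was the widest of the enzymes (adjusted p = 0.00338), yet per kilobase it made up 0.278% to 0.658% of aldolase transcript in the 3 vehicle tumors, where Aldoa held the rest.

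Other enzymes rose by amounts of the same order. Hk2, the inducible hexokinase, averaged 112 ± 44.2 CPM in vehicle tumors and 42.1 ± 18.2 CPM in DMSO cells (SD, n = 3 each), a log2 fold change of 1.41 ± 0.38. Gpi1, glucose-6-phosphate isomerase, averaged 1202 ± 339 CPM in vehicle tumors and 585 ± 27.6 CPM in DMSO cells, a log2 fold change of 1.03 ± 0.20. Pgk1, phosphoglycerate kinase and the first ATP-forming step, averaged 1483 ± 566 CPM in vehicle tumors and 722 ± 133 CPM in DMSO cells, a log2 fold change of 1.03 ± 0.29. The wide SD of the vehicle tumors came from both ends. For all 3 genes vehicle tumor 2 was the highest of them and vehicle tumor 3 the lowest. Pfkp, the platelet-type phosphofructokinase, had a log2 fold change of 1.00 ± 0.29, and Eno1, the common enolase, one of 0.57 ± 0.15; both passed the threshold (adjusted p = 0.0342 and 0.0237).

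The enzymes not called were the hexokinase Hk1, the aldolase Aldoa, Gapdh, the mutase Pgam1, the neuronal-type enolase Eno2 and the pyruvate kinase Pkm. Their log2 fold changes ran from -0.06 ± 0.24 for Hk1 to 0.53 ± 0.25 for Aldoa. Gapdh, often taken as a constant reference gene, had a log2 fold change of 0.40 ± 0.20 with a 95% interval of -0.07 to 0.87, and in midostaurin tumors over midostaurin cells it was called higher, at 0.64 ± 0.15 (adjusted p = 0.0148). Several of these genes share sequence with others. Eno1b, a near copy of Eno1, carried 872 ± 170 CPM in vehicle tumors and 549 ± 13.1 CPM in DMSO cells, Pgk1-rs7 3421 to 6448 counts in vehicle tumors and Pgam1-ps2 5528 to 7198 counts there, so reads may have been split between them. Summing each member with its copies left 25 members higher and 3 lower. Pkm shares 767 exonic bases on the same strand with Gm49759. On the opposite strand Pfkp shares 748 exonic bases with Pitrm1, Pfkm 18 with Senp1 and Car9 214 with Gm12454. Ankrd37 shares 349 exonic bases with Lrp2bp and 57 with Ufsp2, also on the opposite strand. Lrp2bp had 0 to 42 counts per library, 0% to 53.6% of those of Ankrd37. The strand setting of the counting is not given in the sources used here.

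Pfkm, the muscle-type phosphofructokinase, ran against the other 2 isozymes of its step. It had 39.6, 38.8 and 40.4 CPM in vehicle tumors, against 51.9, 112 and 91.1 CPM in DMSO cells. All 3 tumors lay below the cells, with the cell library numbered 1 nearest to them, and the log2 fold change was -1.11 ± 0.27 (edgeR's quasi-likelihood test, adjusted p = 0.0163). In midostaurin tumors over midostaurin cells it was -0.83 ± 0.31 and missed the threshold (adjusted p = 0.078); against midostaurin cells 2 and 3 alone, a comparison chosen after seeing the data, it was called lower. The makeup of the step differed accordingly. Per kilobase, Pfkl held 64.1% to 71.4% of the summed phosphofructokinase level in vehicle tumors and 31.9% to 47.6% in DMSO cells. Pfkm held 16.8% to 25.5% in vehicle tumors and 46.3% to 60.8% in DMSO cells. These shares depend on the lengths used, which were 6675, 3340 and 13401 bases of merged exons for Pfkl, Pfkm and Pfkp. In CPM not divided by length, Pfkl lay above Pfkm in each DMSO cell library, at 107, 117 and 121 CPM against 51.9, 112 and 91.1 CPM. Of the summed level of Hk1 and Hk2 per kilobase, Hk2 held 44.3% to 55.1% in vehicle tumors, against 44.9%, 19.6% and 19.1% in DMSO cells 1, 2 and 3. By this measure the cell library numbered 1 had a tumor-like share. Hk3, a hexokinase outside the members that was also present in vehicle tumors, was not part of the sum.

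**Figure D3:**
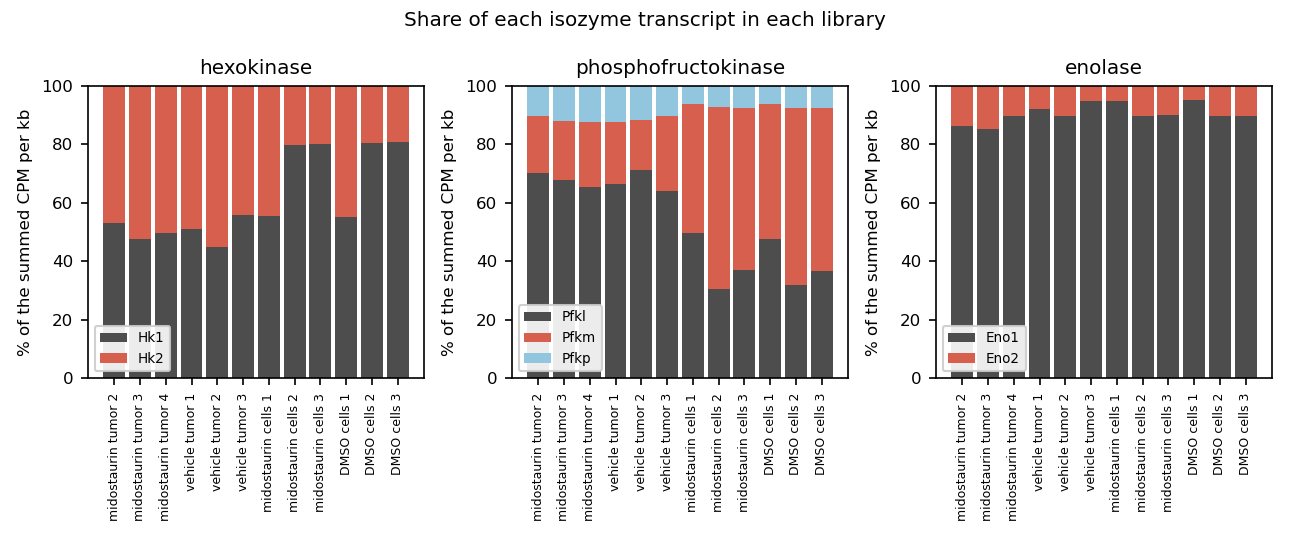
Share of each isozyme in the summed CPM per kilobase of the members of its step (vertical axis, percent) in each library. The members are Hk1 and Hk2 for hexokinase, Pfkl, Pfkm and Pfkp for phosphofructokinase, and Eno1 and Eno2 for enolase. Hk3 and Eno1b are left out of the sums. Pfkl holds at least 64.1% of its step in every tumor and at most 49.6% in every cell library, and Hk2 has a larger share in the cell libraries numbered 1 than in the other 4.

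The bifunctional PFKFB enzymes set the level of fructose 2,6-bisphosphate, the strongest activator of phosphofructokinase. Pfkfb3, the strongly kinase-type form, had 21.9, 22.7 and 15.2 CPM in vehicle tumors, against 0.531, 0.489 and 0.512 CPM in DMSO cells. It had the smallest p of all members, with a log2 fold change of 5.27 ± 0.24 (edgeR's quasi-likelihood test, adjusted p = 8.641e-05). Pfkfb4, another form of the enzyme, had 13.2, 13.7 and 14.0 CPM in vehicle tumors, against 12.7, 20.5 and 20.3 CPM in DMSO cells, and was not called, at -0.39 ± 0.21. Per kilobase, Pfkfb3 therefore made up 41.1% to 51.8% of the 2 transcripts in vehicle tumors, against 1.52% to 2.63% in DMSO cells.

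All 3 genes that direct pyruvate to lactate or away from mitochondria were higher in vehicle tumors. Slc16a3, which encodes the lactate exporter MCT4, had 94.5, 94.0 and 64.4 CPM in vehicle tumors, against 31.2, 20.1 and 20.6 CPM in DMSO cells. Its log2 fold change was 1.81 ± 0.23 (edgeR's quasi-likelihood test, adjusted p = 0.0017), and each tumor stood above each cell library by at least the full range of the cells. Pdk1, the kinase that switches off pyruvate dehydrogenase, averaged 97.1 ± 42.1 CPM in vehicle tumors and 28.9 ± 8.72 CPM in DMSO cells (SD, n = 3 each), a log2 fold change of 1.74 ± 0.37. Ldha, the lactate dehydrogenase subunit that favours lactate, averaged 2102 ± 551 CPM in vehicle tumors and 1234 ± 160 CPM in DMSO cells, a smaller log2 fold change of 0.76 ± 0.21 (adjusted p = 0.0279).

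Among the oxygen sensors and factors, the hydroxylases and the 2 alpha subunits differed in direction. Egln3, a prolyl hydroxylase induced by HIF, had 5.32, 15.8 and 1.60 CPM in vehicle tumors, against 0.0506, 0.190 and 0.0569 CPM in DMSO cells, which were 2, 7 and 2 counts. Egln1, the main hydroxylase in normal oxygen, averaged 179 ± 55.1 CPM in vehicle tumors and 79.0 ± 11.7 CPM in DMSO cells (SD, n = 3 each). Both were called higher, by 6.21 ± 1.06 and 1.17 ± 0.24 on the log2 scale (edgeR's quasi-likelihood test, adjusted p = 0.0047 and 0.00901). Egln3 varied widely among the vehicle tumors, with vehicle tumor 2 highest and vehicle tumor 3 lowest.

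Hif1a, the broadly expressed alpha subunit, had 120, 120 and 107 CPM in vehicle tumors, against 181, 296 and 290 CPM in DMSO cells. The groups did not overlap and the log2 fold change was -1.15 ± 0.20 (edgeR's quasi-likelihood test, adjusted p = 0.00486). In midostaurin tumors over midostaurin cells it was -0.78 ± 0.29 and missed the threshold (adjusted p = 0.0737), with midostaurin tumor 3 at 211 CPM above midostaurin cells 1 at 183 CPM. Like Pfkm, Hif1a was called lower against midostaurin cells 2 and 3 alone, the comparison chosen after seeing the data. Epas1, the alpha subunit HIF2A known from endothelium and other selected cell types, had 17.3, 11.0 and 11.3 CPM in vehicle tumors and 0 counts in all 6 cell libraries. It was at least 162.8-fold higher in vehicle tumors than in DMSO cells, against the floor of 3 counts per library. Per kilobase, Hif1a still held 86.8% to 91.2% of the 2 alpha transcripts in vehicle tumors and all of it in cells.

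Of the acid-handling surface enzymes, Car9 averaged 99.0 ± 72.5 CPM in vehicle tumors and 5.64 ± 6.25 CPM in DMSO cells (SD, n = 3 each). The libraries of each group lay far apart. Vehicle tumor 3 had 15.4 CPM, next to 12.8 CPM in DMSO cells 1, while vehicle tumors 1 and 2 had 138 and 144 CPM and DMSO cells 2 and 3 had 1.79 and 2.28 CPM. Its log2 fold change was 4.12 ± 1.10 (edgeR's quasi-likelihood test, adjusted p = 0.0239). Car12, a related membrane carbonic anhydrase, was also called higher, at 2.18 ± 0.61, with 14.8 ± 6.12 CPM in vehicle tumors and 3.25 ± 2.59 CPM in DMSO cells. In midostaurin tumors over midostaurin cells Car12 missed the threshold, at 1.40 ± 0.64 (adjusted p = 0.13). It was called higher against midostaurin cells 2 and 3 alone, the comparison chosen after seeing the data.

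The secreted factors moved in opposite directions. Adm, the vasodilator peptide adrenomedullin, had 6.69, 7.07 and 3.52 CPM in vehicle tumors, against 0.126, 0.0544 and 0.114 CPM in DMSO cells, which were 5, 2 and 4 counts. It was called higher, at 5.82 ± 0.47 (edgeR's quasi-likelihood test, adjusted p = 0.000366). Vegfa, the main endothelial growth factor and a textbook HIF target, had 190, 274 and 137 CPM in vehicle tumors, against 270, 431 and 434 CPM in DMSO cells. Vehicle tumor 2 overlapped DMSO cells 1 by a few CPM, and the log2 fold change was -0.93 ± 0.29 (adjusted p = 0.0432). In midostaurin tumors over midostaurin cells it was -0.34 ± 0.23 and was not called (adjusted p = 0.285).

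The mitochondrial members encode mitophagy receptors and a respiratory chain assembly protein. Bnip3, one of the receptors, averaged 208 ± 119 CPM in vehicle tumors and 46.1 ± 2.80 CPM in DMSO cells (SD, n = 3 each), a log2 fold change of 2.17 ± 0.42 (edgeR's quasi-likelihood test, adjusted p = 0.00768). Higd1a, the assembly protein, had a log2 fold change of 1.34 ± 0.39 and was called higher. Bnip3l, the other receptor, was not called, at 0.42 ± 0.23. The collagen prolyl hydroxylases, which need oxygen and prepare collagen for secretion, were both higher. P4ha1 had 287, 321 and 258 CPM in vehicle tumors, against 92.3, 76.8 and 75.6 CPM in DMSO cells. Its log2 fold change of 1.82 ± 0.13 had the smallest SE of the 40 members (adjusted p = 0.000277), and the 3 tumors lay close together. P4ha2 had a log2 fold change of 1.25 ± 0.33.

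Of the remaining hypoxia targets, Ndrg1 and Ankrd37 were higher and 3 were not called. Ankrd37, an ankyrin-repeat protein, had 19.9, 32.0 and 9.02 CPM in vehicle tumors, against 2.15, 2.04 and 2.39 CPM in DMSO cells. Its log2 fold change was 3.20 ± 0.46 (edgeR's quasi-likelihood test, adjusted p = 0.00254). Ndrg1, a stress-responsive gene, averaged 710 ± 439 CPM in vehicle tumors and 157 ± 40.8 CPM in DMSO cells, a log2 fold change of 2.17 ± 0.47. The histone demethylase Kdm3a, the MTOR inhibitor Ddit4 and the MYC antagonist Mxi1 differed by 0.37 ± 0.32, -0.35 ± 0.17 and 0.67 ± 0.23 on the log2 scale, with adjusted p-values of 0.383, 0.157 and 0.0545.

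**Figure D4:**
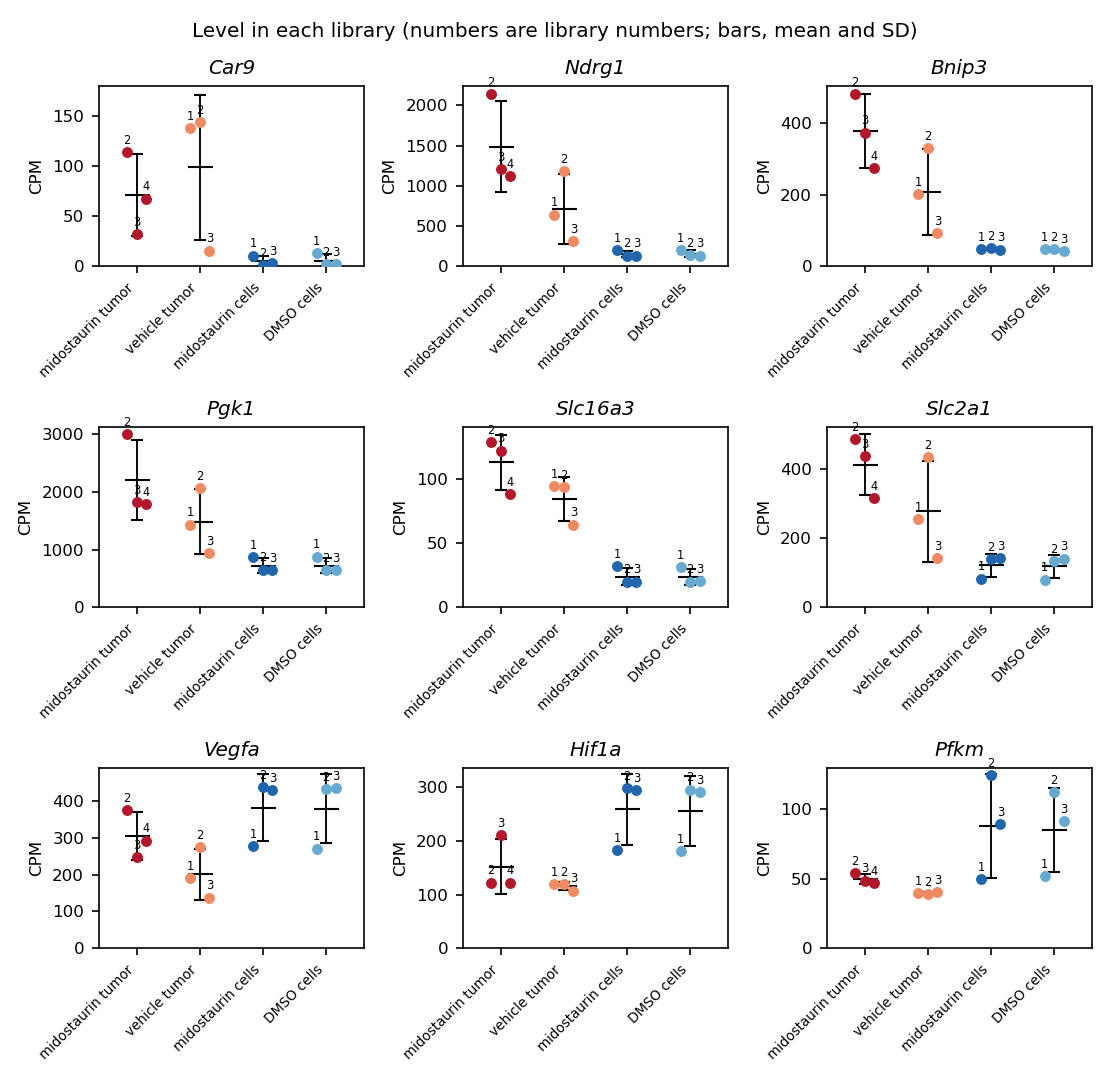
CPM (vertical axes, starting at 0) of 9 genes in every library, with the library number beside each point and bars for the mean and SD of the 3 libraries of a group. Vehicle tumor 3 lies below the other tumors for Car9, Ndrg1, Bnip3, Pgk1 and Slc2a1, and the cell libraries numbered 1 lie apart from numbers 2 and 3 for each gene but Bnip3.

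Libraries numbered 1 in culture differed from the others in the members themselves. Car9 averaged 11.7 CPM in the libraries numbered 1 and 2.10 CPM in the other 4, and Hk2 62.4 and 31.9 CPM. Both groups of cells showed this split, as did Pgk1, Slc16a3, Pdk1 and Ndrg1, all above the other 4 libraries. Hif1a, Vegfa, Slc2a1, Pfkm and Eno2 were below them. Mitochondrial mRNA took 4.60% and 4.64% of counts in the libraries numbered 1 and 5.91% to 6.11% in the other 4, and proliferation markers summed to 2061 and 2070 CPM against 1203 to 1549 CPM; the part of these in the split was not tested.

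The effect of the drug in tumors was the next comparison. Of the members, none was called between midostaurin and vehicle tumors: 0 of 40 passed edgeR's quasi-likelihood test, with a smallest adjusted p of 0.115, and 0.0435% of the 16094 genes tested did. At an unadjusted p under 0.05, 5 members were higher and 0 lower, where 10.5% and 9.43% of all genes were. DESeq2 called 1 member, Pfkm, higher (adjusted p = 0.0234), where it called 5.43% of all genes higher. The direction was nonetheless shared: 34 of 40 members had a log2 fold change above 0, against 47.9% of all genes, and all 15 enzymes did. The median was 0.39 over the members and -0.01 over all genes. The members moved together from tumor to tumor, so this count does not stand for 40 separate observations. The same median was 0.22 without vehicle tumor 3, 0.22 without midostaurin tumor 2 and 0.59 without vehicle tumor 2. Without vehicle tumor 2, 23 members had an unadjusted p under 0.05 and 0 were called.

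**Figure D5:**
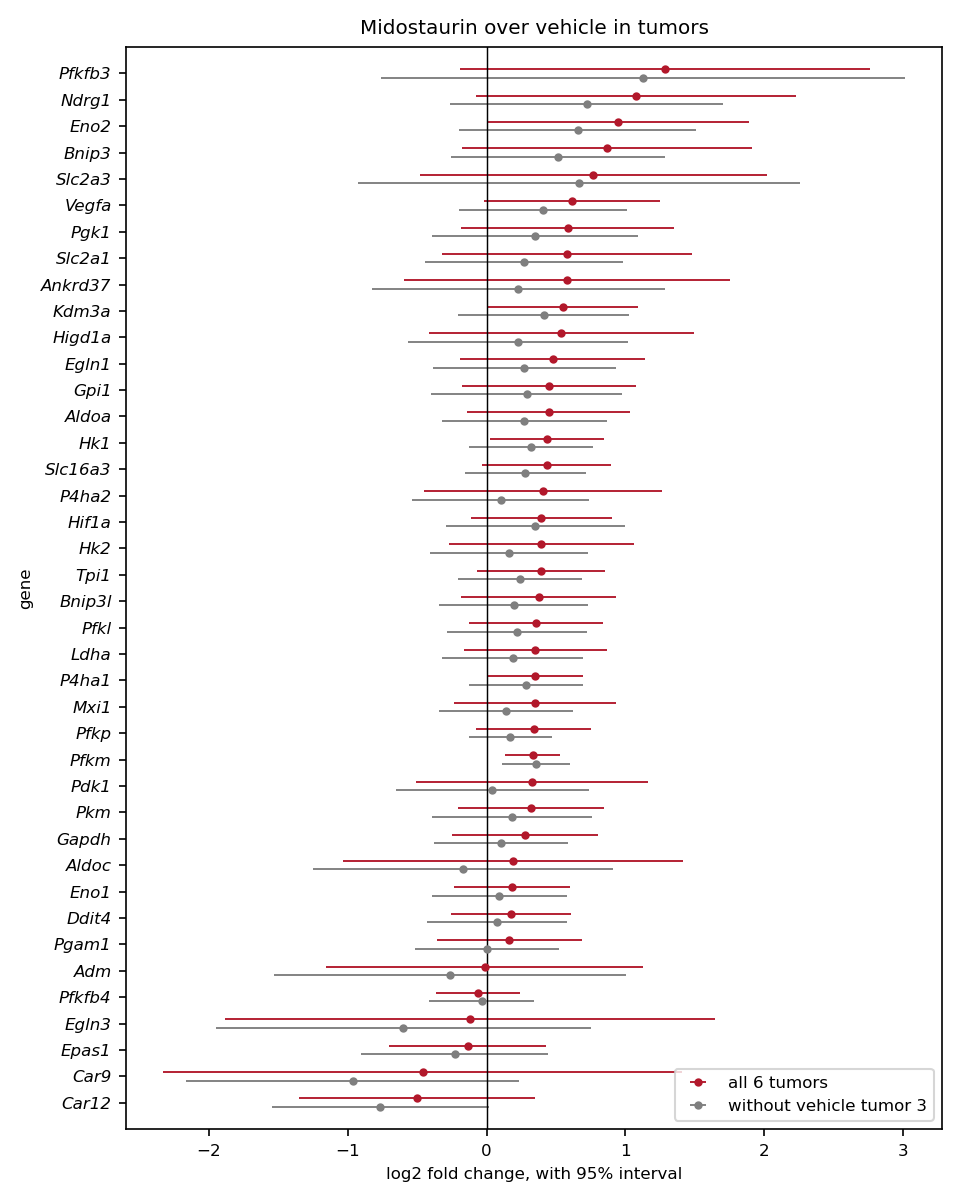
Log2 fold change of midostaurin over vehicle tumors with its 95% interval (horizontal axis) for the 40 genes (rows), with all 6 tumors (red) and without vehicle tumor 3 (grey). Nearly all intervals include 0, and most grey points lie to the left of the red ones.

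The 8 members with the smallest p included the isozymes Pfkm, Hk1 and Eno2. Pfkm had 53.7, 48.4 and 46.9 CPM in midostaurin tumors 2, 3 and 4, against 39.6, 38.8 and 40.4 CPM in vehicle tumors 1, 2 and 3. The groups did not overlap, and the log2 fold change was 0.33 ± 0.08 (edgeR's quasi-likelihood test, adjusted p = 0.115). Of all genes tested, 13.2% had midostaurin tumors wholly above vehicle tumors, and 2 members did, Pfkm and Hif1a. Hk1 had 240, 225 and 170 CPM in midostaurin tumors, against 156, 186 and 129 CPM in vehicle tumors, a log2 fold change of 0.43 ± 0.17. Eno2 had 486, 408 and 260 CPM in midostaurin tumors, against 181, 311 and 108 CPM in vehicle tumors, a log2 fold change of 0.95 ± 0.40. For both, midostaurin tumor 4 lay below vehicle tumor 2, so the groups overlapped.

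The others of these 8 were hypoxia targets and the lactate exporter. P4ha1 had 429, 309 and 361 CPM in midostaurin tumors, against 287, 321 and 258 CPM in vehicle tumors, a log2 fold change of 0.35 ± 0.14. Kdm3a had 249, 195 and 192 CPM in midostaurin tumors, against 122, 200 and 115 CPM in vehicle tumors, a log2 fold change of 0.55 ± 0.23. In both genes vehicle tumor 2 lay among the midostaurin tumors. Vegfa had 375, 247 and 292 CPM in midostaurin tumors, against 190, 274 and 137 CPM in vehicle tumors, a log2 fold change of 0.61 ± 0.27. Slc16a3 had 129, 122 and 88.5 CPM in midostaurin tumors, against 94.5, 94.0 and 64.4 CPM in vehicle tumors, a log2 fold change of 0.43 ± 0.19. Ndrg1 had 2139, 1202 and 1117 CPM in midostaurin tumors, against 642, 1179 and 309 CPM in vehicle tumors, and at 1.08 ± 0.49 it was the widest of the 8. None of the 8 passed adjustment, with adjusted p-values of 0.115 to 0.277.

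Of the 40 members, 6 lay below 0 with the drug. Car12 had a log2 fold change of -0.50 ± 0.36 and Car9 one of -0.46 ± 0.79, with 95% intervals of -1.35 to 0.35 and -2.33 to 1.41. The carbonic anhydrases were the only role group with no member above 0, and Epas1, Egln3, Pfkfb4 and Adm lay between -0.14 and -0.01. Hif1a had 122, 211 and 122 CPM in midostaurin tumors, against 120, 120 and 107 CPM in vehicle tumors. Its groups did not overlap only by a margin of a few CPM, and the log2 fold change was 0.39 ± 0.21 (edgeR's quasi-likelihood test, adjusted p = 0.35). Pfkfb3 had the widest change, at 1.28 ± 0.62, but rested on 1 library: it had 19.5, 103 and 23.8 CPM in midostaurin tumors 2, 3 and 4, against 21.9, 22.7 and 15.2 CPM in vehicle tumors. Midostaurin tumor 3, the high one, was the tumor with 691 CPM of neutrophil markers, and without it the log2 fold changes of Pfkfb3 and Hif1a were 0.13 and 0.10; the part of those in Pfkfb3 was not tested. Slc2a3 was highest in the same tumor, at 15.6 CPM, with 6.21 and 3.34 CPM in midostaurin tumors 2 and 4 and 4.12 to 6.11 CPM in vehicle tumors.

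The members ranked the tumors in a common order. Vehicle tumor 3 was the lowest of the 6 tumors for 34 of 40 members, where it was the lowest for 15.8% of all genes, and midostaurin tumor 2 was the highest for 28 of 40, where it was the highest for 15.8% of all genes. The 15 enzymes together took 2.38%, 1.70% and 1.65% of counts in midostaurin tumors 2, 3 and 4, against 1.52%, 1.90% and 1.16% in vehicle tumors 1, 2 and 3 and 1.05% to 1.13% in the 6 cell libraries. By this measure vehicle tumor 3 stood close to cultured cells. Macrophage markers ran the opposite way at both ends, with 559 CPM in midostaurin tumor 2, the lowest tumor, and 2428 CPM in vehicle tumor 3, the highest; their part in the order was not tested. Colon epithelial markers summed to 434 to 694 CPM in midostaurin tumors and 186 to 399 CPM in vehicle tumors, without overlap. Most of that was Krt20. Of the 7 colon epithelial markers tested, 3 lay above 0 and 4 below, with a median log2 fold change of -0.08. All 5 red cell markers tested were lower with midostaurin at an unadjusted p under 0.05, where 9.43% of all genes were. Sums of the red cell list overlapped, at 16.8 to 118 CPM in midostaurin tumors and 32.4 to 2010 CPM in vehicle tumors. Of 10 proliferation markers 9 lay below 0, where 47.9% of all genes lay above 0. In either list 0 were called, and the part of these markers was not tested. Mitochondrial mRNA took 1.08% to 2.47% of counts in midostaurin tumors and 2.14% to 2.87% in vehicle tumors, and its part was likewise not tested. With vehicle tumor 3 left out, 33 of 40 members still lay above 0, against 49.4% of all genes, 0 were called among 16581 genes tested, and the log2 fold changes of Ndrg1, Bnip3, Eno2 and Pfkm were 0.72 ± 0.40, 0.52 ± 0.31, 0.66 ± 0.34 and 0.36 ± 0.10. Pfkm alone kept its size without that tumor among these 4. Car9 was then -0.96 ± 0.49 and Car12 -0.76 ± 0.32, farther below 0 than with all 6 tumors.

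In cultured cells no response of the members to midostaurin was detected. Of the 40, 36 had enough counts to be tested, and 0 were called, with 0 of all 14538 genes tested also called by edgeR's quasi-likelihood test (0% called). At an unadjusted p under 0.05 there were 0 members and 0.516% of all genes, and DESeq2 called 0 members and 0.0138% of all genes. The log2 fold change lay above 0 for 21 of 36 members, against 51.6% of all genes, with a median of 0.01. Mxi1 had the smallest unadjusted p of the quasi-likelihood test, 0.41. Mxi1 had 72.3, 87.2 and 80.4 CPM in midostaurin cells 1, 2 and 3, against 67.6, 77.3 and 79.3 CPM in DMSO cells, a log2 fold change of 0.10 ± 0.11. Bnip3 had 47.7, 51.5 and 46.1 CPM in midostaurin cells, against 47.3, 48.0 and 42.8 CPM in DMSO cells, a log2 fold change of 0.07 ± 0.09. For both genes the libraries of the 2 groups overlapped. Aldoc had 0.619, 0.601 and 0.663 CPM in midostaurin cells, against 0.405, 0.489 and 0.683 CPM in DMSO cells, and Ankrd37 1.44, 2.27 and 2.10 CPM in midostaurin cells, against 2.15, 2.04 and 2.39 CPM in DMSO cells. The groups overlapped for both genes, and Aldoc rested on 16 to 24 counts per library. Pfkfb4 had 11.6 to 19.7 CPM in midostaurin cells, against 12.7 to 20.5 CPM in DMSO cells, the library numbered 1 being lowest in both groups.

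The precision of the cell comparison varied widely between members. Gapdh, at 2405, 2306 and 2231 CPM in midostaurin cells and 2370, 2261 and 2201 CPM in DMSO cells, had a log2 fold change of 0.02 with a 95% interval of -0.14 to 0.19, and Pgam1, at 481, 462 and 441 CPM in midostaurin cells and 470, 448 and 430 CPM in DMSO cells, one of 0.04 with -0.15 to 0.23. A change of 2-fold lay outside both intervals. Pfkfb4, Aldoc and Ankrd37 had log2 fold changes of -0.12 ± 0.28, 0.26 ± 0.31 and -0.18 ± 0.24. Car12, with 8.13, 1.80 and 1.88 CPM in midostaurin cells and 6.17, 2.37 and 1.22 CPM in DMSO cells, had an interval of -1.74 to 2.29, and that of Car9 ran from -2.78 to 2.40, both wide enough to hold a change of 2-fold in either direction. The libraries numbered 1 were the high ones in both groups for both genes. The replicate numbers were taken as pairs of cell libraries. With the number as a block the intervals narrowed to -0.60 to 0.31 for Car9 and -0.26 to 0.69 for Car12. A change of 2-fold lay outside both under that pairing. In that fit 0 members were called, where 0.055% of all genes were. At an unadjusted p under 0.05 there were 3 members, Gapdh, Pkm and Mxi1, where 4.33% of all genes were, with log2 fold changes of 0.02 ± 0.01, 0.02 ± 0.01 and 0.10 ± 0.04 (edgeR's quasi-likelihood test, adjusted p = 0.992 for each). Epas1, Slc2a3, Egln3 and Adm were not tested, with at most 7 counts in any cell library.

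The drug response in tumors and that in cells were compared directly as an interaction over all 12 libraries. By edgeR's quasi-likelihood test 0 of 40 members were called, and 0.00589% of the 16965 genes tested were; at an unadjusted p under 0.05 there were 0 members and 6.08% of all genes, and DESeq2 called 0 members and 0.578% of all genes. The log2 difference, tumor response minus cell response, lay above 0 for 36 of 40 members against 48% of all genes, with a median of 0.38. These counts include Slc2a3 and Epas1, whose cell response rests on libraries without counts. Ndrg1 had the smallest p, with a difference of 1.08 ± 0.61 and a 95% interval of -0.27 to 2.43 (edgeR's quasi-likelihood test, adjusted p = 0.879). When all libraries were blocked by replicate number, Gpi1, Pkm and Egln1 were called higher. The tumor numbers were not taken as pairs, and whether they pair the tumors is not known. With the block in cells alone, 0 members and 0.0943% of all genes were called. Without a block on the tumor numbers, the 4 groups of libraries thus show no called difference in how the members answered the drug.

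Other genes of the same pathways were read from further lists, in vehicle tumors against DMSO cells, where 22.2% of all genes were called higher and 18.1% lower. Of 51 other hypoxia targets tested, 28 were higher and 5 were lower. Igfbp3, which binds insulin-like growth factors, had 134 ± 14.0 CPM in vehicle tumors and 0 counts in every cell library, and Angptl4, an inhibitor of lipoprotein lipase, had 50.6 ± 11.9 CPM in vehicle tumors and 3.37 ± 0.775 CPM in DMSO cells. Cited2, which competes with HIF for its coactivator, was lower, with 88.0 ± 9.12 CPM in vehicle tumors and 239 ± 13.5 CPM in DMSO cells, a log2 fold change of -1.45 ± 0.11 (edgeR's quasi-likelihood test, adjusted p = 0.00031). Of 13 other glycolytic genes tested, 2 were higher and 3 lower, which is near the shares of all genes. Hk3, a hexokinase known from myeloid cells, had 38.2 ± 8.22 CPM in vehicle tumors and 0.0466 ± 0.0432 CPM in DMSO cells, while Pfkfb2 fell, at -1.86 ± 0.26, and so did Tigar, which lowers fructose 2,6-bisphosphate, at -0.94 ± 0.16.

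Neighbouring routes were read against the same shares of all genes. Of 9 pentose phosphate genes 4 were higher and 3 lower; G6pdx, the entry enzyme, had 100 ± 2.76 CPM in vehicle tumors and 219 ± 32.0 CPM in DMSO cells, a log2 fold change of -1.14 ± 0.13 (edgeR's quasi-likelihood test, adjusted p = 0.00106). Of 12 tested genes that carry pyruvate into mitochondria or control its oxidation, 1 was higher and 4 were lower, among them Pcx, pyruvate carboxylase, at -1.74 ± 0.16. Pdp1, the phosphatase that reactivates pyruvate dehydrogenase, was the one that rose, at 1.02 ± 0.23. Of 18 citric acid cycle genes 4 were higher and 2 lower, a share called higher like that of all genes, with a median of -0.03. Of 13 mitochondrially encoded mRNAs 0 were higher and 11 lower, with a median of -1.40. With midostaurin, none of these lists held a called gene in tumors; 34 of 51 other hypoxia targets lay above 0, with a median of 0.19, and 6 of 15 other glycolytic genes did, with a median of -0.05, against 47.9% of all genes.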

How the data were processed

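RNA was isolated with TRIzol and poly(A)-selected libraries were made with a NEBNext directional kit, per the labels' protocols. Per the submitters' processing notes, FastQC 0.11.2, Bowtie2 2.3.4, RSEM and the mouse build mm10 were used; their order and settings are not given in the sources used here. The authors deposited whole-number counts per gene in 2 tables, 1 for cells and 1 for tumors, each of 55335 identifiers, 181 of them without a symbol. The midostaurin tumor columns are numbered 2 to 4 where the labels number 1 to 3; column 4 was taken by its name as a midostaurin tumor, without a number of the labels. Aldoa had a second identifier, which was left out.

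Genes were kept by filterByExpr and scaled by TMM, and tested with edgeR 4.0.16 (R 4.3.3, limma 3.58.1) by the quasi-likelihood test with Benjamini-Hochberg adjustment over all genes tested, called at an adjusted p under 0.05. Each comparison used its own 6 libraries, and the difference between drug responses used all 12. DESeq2 1.42.0, limma-voom, other scalings, no filter, the replicate block and leaving out each library were alternatives. CPM were scaled over the 12 libraries together. The scripts were tested on simulated data. Intervals are at 95% and cover the spread between libraries; a fold against 0 counts used a floor of 3 counts per library, which covers counting error only. Exon lengths were those of all annotated exons of a gene merged, from an annotation of mm10, and shares per kilobase depend on them. Promoter windows came from RefSeq on GRCm38.p6.

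Same-numbered cell libraries deviated together across genes, with correlations of 0.740, 0.436 and 0.462 for numbers 1, 2 and 3. Cell libraries numbered 2 and 3 also deviated together across the groups, at 0.331 and 0.322. The cell numbers were taken as pairs on these values, which are clearest for number 1. The tumor numbers were not taken as pairs, at correlations across genes of 0.096 and -0.166 for numbers 2 and 3. Across the members alone the same pairs had correlations of 0.431 and 0.271, against -0.376 to 0.159 for tumors with different numbers.

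The members and lists were chosen with earlier results of these data known. All 40 members could be named; of each other list up to 5 genes with the smallest p in a comparison. Values per library were given for up to 12 called members by smallest p, or for the 8 with the smallest p where none was called; values of other members were chosen after they were seen.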

Additional observations from a re-analysis of the deposited data

How the results depend on the processing

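In tumors, genes called higher and lower with midostaurin numbered 5 and 2; DESeq2 gave 874 and 573, limma-voom 11 and 5, library totals 1 lower, and no low-count filter, the replicate block and leaving out both tumors numbered 3 gave 0 and 0. DESeq2 called 1 member. Leaving out each tumor gave 0 to 1 higher and 0 to 0 lower. Log2 fold changes with midostaurin in tumors turned sign for Egln3 with limma-voom (0.37) and the block (0.63), for Car9 with the block (0.35), and for Aldoc (-0.20), Slc2a3 (-0.13) and Pfkfb3 (-0.026) without both tumors numbered 3. With 1 tumor left out they ran over -0.43 to 0.35 for Adm, -0.17 to 0.97 for Aldoc, -0.60 to 1.03 for Egln3, -0.24 to 0.11 for Epas1, -0.119 to 0.0265 for Pfkfb4, -0.061 to 0.31 for Pgam1 and -0.021 to 1.15 for Slc2a3. In cells, genes called numbered 1 higher and 1 lower with DESeq2, the same with limma-voom, 1 higher with library totals, and 5 higher and 3 lower with the block; the median of the members ran over 0.0031 to 0.0643 with 1 library left out. Between tumors and cells, members called higher ran over 16 to 29 and lower over 1 to 4, genes called lower over 1656 to 3715, and Hk1 over -0.26 to 0.10 with 1 library left out. Hk1 was 0.40 in midostaurin tumors over midostaurin cells and 0.20 over midostaurin cells 2 and 3; the median was 1.48 and 1.5 there, with 0 members lower in the first. The block left 25 members higher and 3 lower. For the difference between responses, DESeq2 called 64 genes higher and 34 lower, the replicate block 119 and 59 with 3 members higher, and the block in cells alone, added after seeing the data, 12 and 4; leaving out each library gave 1 to 5 higher and 0 to 1 lower. The cause of these changes was not tested.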
